A study of Homo sapiens with 6 samples.

Results

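The 10 genes FOS, FOSL1, FOSL2, JUN, JUNB, JUND, EGR1, ATF3, IER2 and IER3, which encode immediate early transcription factors and products of immediate early genes, were read from the count table by gene symbol. They were 10 of 40205 genes in the table and 10 of 15047 genes with enough reads to be tested. RNA-seq was run on cells labelled HepG2, a human liver cancer cell line, in a control group (Control-1 to Control-3) and a group exposed to cationic liposomes (CLs-1 to CLs-3). CLs are lipid vesicles with a positive surface charge, made here from DOTAP, cholesterol and DSPE-mPEG. Cells of both groups were plated for 24 h, and the CLs-treated group was then exposed for another 24 h to a dose that the labels give as 120 μM, while the same figure stands with the unit μg/ml elsewhere in the study. The labels do not say that the 3 samples of a group came from separate cultures, so p-values measure the spread between these samples, which may be technical.

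Immediate early genes are switched on by growth factors and stress without new protein synthesis, mostly through MAP kinases that activate SRF with its ETS-domain cofactors and CREB-type factors at their promoters. FOS and JUN family proteins pair through leucine zippers into the AP-1 dimer, which binds DNA in the control regions of genes for growth, adhesion and matrix breakdown. EGR1 is a zinc finger factor, ATF3 is a leucine zipper factor of stressed cells that can pair with JUN proteins, and IER2 and IER3 are short-lived products of the same early wave. In liver cells this wave is known from regeneration and injury. A burst of induction fades soon after a stimulus, and the CLs-treated samples here were taken at a single time, after 24 h of exposure. The labels do not give the time at which the controls were taken, so time in culture may differ between the groups.

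The stretch just before the start site is shown for EGR1, FOS, FOSB and JUN. EGR1 was chosen as the most uneven of the 10 genes between libraries, and FOSB because it was far higher in CLs-1 than elsewhere. FOS belongs to the same family as FOSB, and JUN is a gene that did not follow them. The 150 bases before each start are from RefSeq on GRCh38.p14, 5′ to 3′ on the gene's strand. Capitals mark the CArG box that SRF binds, the core TGACG of the CRE that CREB-type factors bind, and TGACATCA, a variant AP-1 and CRE site, each searched on both strands.
EGR1: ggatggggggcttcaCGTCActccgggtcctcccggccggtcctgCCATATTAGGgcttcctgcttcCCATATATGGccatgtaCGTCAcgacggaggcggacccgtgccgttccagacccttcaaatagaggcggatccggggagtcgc
FOS: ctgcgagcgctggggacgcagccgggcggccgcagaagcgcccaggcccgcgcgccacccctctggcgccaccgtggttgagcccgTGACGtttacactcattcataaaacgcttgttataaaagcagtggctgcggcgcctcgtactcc
FOSB: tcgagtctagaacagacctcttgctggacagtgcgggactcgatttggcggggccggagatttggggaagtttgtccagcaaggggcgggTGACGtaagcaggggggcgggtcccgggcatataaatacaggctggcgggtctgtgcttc
JUN: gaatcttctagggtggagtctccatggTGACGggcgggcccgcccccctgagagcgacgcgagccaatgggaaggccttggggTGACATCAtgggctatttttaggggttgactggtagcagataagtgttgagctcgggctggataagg
They lie at chr5:138465329-138465478 on the plus strand, chr14:75278678-75278827 on the plus strand, chr19:45467846-45467995 on the plus strand and chr1:58784048-58784197 on the minus strand. RefSeq promoters were matched for 8 of the 10 genes, FOSL1 and IER3 being the exceptions. Over the 250 bases before the start, EGR1 was the 1 of these genes with a CArG box, at -105 to -96 and at -83 to -74, and 1.17% of 34788 promoters of the same length held that motif. The CRE core stood in 7 of the 8, against 21.2% of all promoters, and at -64 to -60 in FOS and -60 to -56 in FOSB. TGACATCA stood in JUN at -67 to -60 and in ATF3 at -123 to -116, and 2.36% of all promoters held it. ATF3 has more than 1 start site, and the match lay before the upstream start only. The full CRE TGACGTCA, which contains the core, stood in JUND and in 1.64% of all promoters. The AP-1 site TGANTCA stood in none of the 8 and in 6.59% of all. A letter match is not a bound site, and sites further upstream were not searched, so a gene without a match may still hold one there.

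The libraries held 11418527 to 13998946 counts on genes, so that 3 counts, taken as the detection floor, correspond to 0.208 to 0.263 CPM (counts scaled to a common, TMM-adjusted library total), for counting error only. The defining markers of the labelled cell type were almost absent. Of 18 hepatocyte and HepG2 markers, none had enough reads to be tested, and their summed level was 0.434 to 2.16 CPM in the controls, 12.8 CPM in CLs-1, and 0.346 and 0.438 CPM in the remaining treated libraries. ALB, the gene of serum albumin, was counted 8 times in CLs-1 and was at 0 elsewhere, and AFP had at most 1 in any library. Of 5 epithelial markers, KRT8 and KRT18, keratins of simple epithelia, had 17452 to 29346 counts in the controls and 9024 to 11542 after CLs. Neither overlapped between the groups, where 11.5% of all genes tested did not. Their log2 fold changes were -1.21 and -1.19, and neither was called (edgeR adjusted p = 0.0508 for each). The remaining epithelial markers were low, with at most 7 counts of EPCAM and 9 of CDH1 in any library. KRT19 had 61 counts in CLs-1 and 1 to 19 elsewhere. Of 8 mesenchymal markers, COL3A1, a fibrillar collagen, had 7456 to 11358 counts over all libraries. COL1A1 had 764 to 2472 and PDGFRB 167 to 275. Outside CLs-1 the remaining ones were almost absent, with 0 counts of LUM and GREM1, at most 1 of THY1 and at most 5 of DCN. The library CLs-1 stood apart, because it also held transcripts that the others lacked. HBB, a globin of red blood cells, was counted 324 times there and no more than 4 times elsewhere. STAR, which moves cholesterol into mitochondria for steroid synthesis, had 290 and at most 3, and COL1A2, another collagen, had 1044 and at most 2. Results that rest on CLs-1 are therefore given with and without it.

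None of the 10 immediate early genes passed the test between the CLs-treated and control groups. By edgeR's quasi-likelihood test, 0 of the 10 passed an adjusted p-value under 0.05 with a fold change above 1.5 or below 0.67, where 0.0864% of all genes tested did. At an unadjusted p-value under 0.05 the count was also 0, against 5.81% of all genes, and DESeq2's Wald test called 0 as well. The CLs-treated samples lay above all controls in none of the 10, against 5.34% of all genes, and below all controls in none, against 6.18%, or 11.5% in both directions together. The log2 fold change (CLs against control) was above 0 in 6 genes and below 0 in 4, with a median of 0.10 against 0.010 over all genes tested. The 95% interval stayed within a fold of 2 either way in 8 genes, the others being EGR1 and IER3. For FOSL2, JUND and IER2 it did not reach a fold of 1.5 or 0.67, whereas in the other 7 genes a change of that size in at least 1 direction was within the interval. Leaving out CLs-1 turned the sign for FOS (-0.16) and EGR1 (-0.29), and leaving out Control-3 turned it for JUND (0.059), IER2 (0.062) and IER3 (0.082). The sign of JUNB turned without Control-1 (-0.20), Control-2 (-0.12) or CLs-3 (-0.019).

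**Figure D1:**
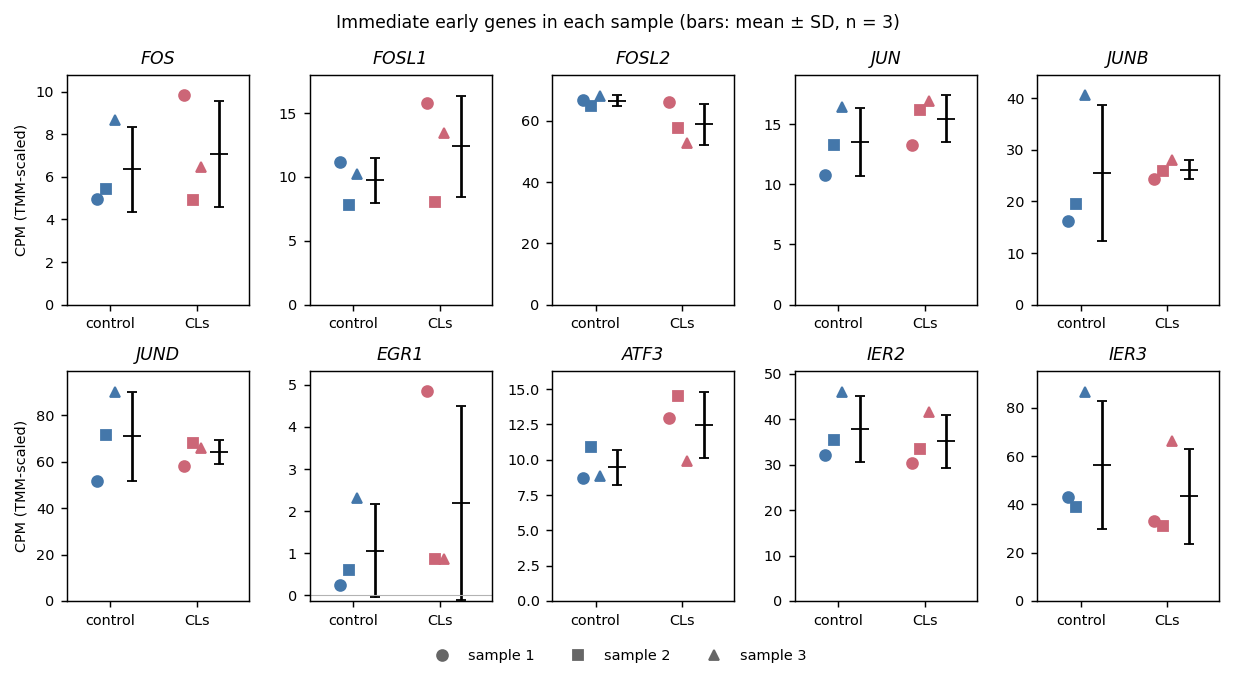
CPM (TMM-scaled, linear axis) of each gene in the 3 control and 3 CLs-treated samples, with symbols for the sample number and bars for mean ± SD (n = 3). In each panel the groups overlap, EGR1 is highest in CLs-1 and JUNB is highest in Control-3.

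Of the FOS family, which cannot bind DNA as AP-1 without a JUN partner, FOS itself was counted 57, 63 and 101 times in the controls, given here and throughout in the order of the sample numbers, and 142, 57 and 74 times in the CLs-treated samples. Scaled to CPM these were 4.95, 5.44 and 8.66 in the controls and 9.83, 4.93 and 6.48 in the CLs-treated samples. CLs-2 was as low as the lowest control, so the groups overlapped. The log2 fold change of FOS was 0.16 (standard error, SE, 0.30, 95% interval -0.50 to 0.83, edgeR adjusted p = 0.998), and it was -0.16 without CLs-1. FOSL1, which encodes FRA-1, an AP-1 subunit linked to migration, was at 11.2, 7.77 and 10.2 CPM in the controls and 15.8, 8.04 and 13.4 CPM in the CLs-treated samples. CLs-1 and CLs-3 were above the controls and CLs-2 was among them, with a log2 fold change of 0.36 (interval -0.22 to 0.93). Without CLs-1 the log2 fold change of FOSL1 was 0.14 (interval -0.46 to 0.75). FOSL2, which encodes FRA-2, varied least among the controls, at 66.9, 64.8 and 68.1 CPM. Its CLs-treated samples were at 66.0, 57.8 and 52.8 CPM, with CLs-1 inside the range of the controls and the others below it. The log2 fold change of FOSL2 was -0.18 (interval -0.47 to 0.12, edgeR adjusted p = 0.978). Without CLs-1 it was -0.27 (interval -0.52 to -0.015), with an adjusted p = 0.534 from the same test.

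JUN, the partner that can also bind DNA as a pair with itself, was at 10.8, 13.3 and 16.5 CPM in the controls and 13.2, 16.2 and 16.9 CPM in the CLs-treated samples. The 2 ranges overlapped over most of their length, and the log2 fold change was 0.19 (interval -0.26 to 0.64). JUNB, a family member that often restrains JUN, was at 16.2, 19.6 and 40.6 CPM in the controls and 24.4, 25.9 and 28.0 CPM in the CLs-treated samples. Control-3 was above and the other controls were below every CLs-treated sample, so the spread of 13.2 CPM (SD, n = 3) among controls covered the whole treated range. The log2 fold change of JUNB was 0.035 (interval -0.59 to 0.66), and it was 0.54 without Control-3, still not called, edgeR adjusted p = 0.552. HOOK2, which was also counted, has exons that overlap JUNB on the other strand. The strand setting of the counting is not stated, so it is not known to which gene, if any, reads of the overlap were assigned. JUND, the family member that most cells express without a stimulus, was at 51.7, 71.3 and 89.9 CPM in the controls and 58.2, 68.2 and 65.9 CPM after CLs. All of its CLs-treated samples lay inside the control range, with a log2 fold change of -0.15 (interval -0.56 to 0.26).

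EGR1 was the least abundant of the 10 and the most uneven between libraries. It was counted 3, 7 and 27 times in the controls and 70, 10 and 10 times after CLs, so Control-1 was at the floor. In CPM these were 0.261, 0.604 and 2.32 in the controls and 4.85, 0.864 and 0.876 after CLs, so the groups overlapped, and CLs-1 and Control-3 were the highest. The log2 fold change of 1.08 (SE 0.77, interval -0.62 to 2.78, edgeR adjusted p = 0.969) became -0.29 without CLs-1 and 2.36 without Control-3. An increase or a decrease of EGR1 by a fold of 1.5 was within the interval.

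ATF3, the stress-induced factor, was at 8.68, 10.9 and 8.83 CPM in the controls and 12.9, 14.5 and 9.90 CPM in the CLs-treated samples. CLs-1 and CLs-2 were above every control and CLs-3 was below Control-2. The log2 fold change of ATF3 was 0.40 (SE 0.21, interval -0.061 to 0.85, edgeR adjusted p = 0.900), and it was 0.37 without CLs-1. The exact two-sided permutation test over the samples gave p = 0.2 for ATF3 and FOSL2, where 3 against 3 cannot go below 0.1. IER2 was at 32.0, 35.4 and 46.0 CPM in the controls and 30.4, 33.5 and 41.7 CPM after CLs, with a log2 fold change of -0.10 (interval -0.50 to 0.29). IER3, which encodes a regulator of survival under stress, was at 43.2, 38.8 and 86.6 CPM in the controls and 33.0, 31.0 and 66.1 CPM after CLs. In IER3 both samples numbered 3 were high and the other 4 lay between 31.0 and 43.2 CPM, and the log2 fold change was -0.37 (interval -1.11 to 0.36). IER2 and IER3 also overlap antisense genes of the GENCODE annotation, which unlike HOOK2 are not among the genes counted. Whether reads of those antisense genes entered the counts of IER2 and IER3 is not known, because the strand setting is not stated.

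**Figure D2:**
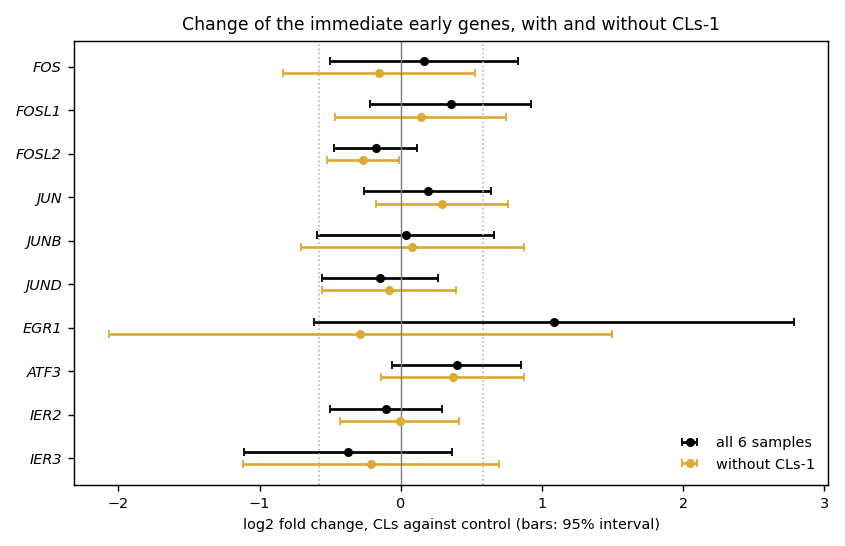
Log2 fold change of each gene, CLs against control, with its 95% interval from edgeR (black: all 6 samples, yellow: without CLs-1), and dotted lines at a fold of 1.5 and 0.67. All black intervals cross 0, and EGR1 moves from 1.08 to -0.29 without CLs-1.

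Levels of different genes were compared as CPM per kb of exon, with exon lengths from GENCODE 29, since the authors' annotation is not given. The length took in the exons of all transcripts of a gene, with each base counted once. A gene whose main transcript is shorter than that reads low, so the order and the shares depend on this choice. In the control group the order was IER3, JUND, JUNB, IER2, FOSL2, FOSL1, JUN, ATF3, FOS and EGR1, from 41.4 ± 19.5 (SD, n = 3) for IER3 to 0.338 ± 0.351 (SD, n = 3) for EGR1. JUND, at 38.1 ± 10.3 CPM per kb, was not separate from IER3, nor were JUNB and IER2, FOSL1 and JUN, or ATF3 and FOS from each other. FOSL2 was above FOSL1, and FOS above EGR1, in every pair of control samples. After CLs both orders held within each library, but not between all pairs of libraries. Within the JUN family JUND made up 68.8 ± 4.26% (SD, n = 3) of the CPM per kb in the controls and 64.8 ± 1.20% after CLs, and JUNB made up most of the rest. Within the FOS family FOSL2 held 56.1 ± 3.65% in the controls, and after CLs it held 38.5, 57.3 and 44.1%. FOS held 11.7 ± 2.99% in the controls and 11.8 ± 0.944% after CLs. On this scale the AP-1 transcripts were mostly those of JUND, JUNB, FOSL2 and FOSL1 in both groups, and not those of FOS and JUN.

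**Figure D3:**
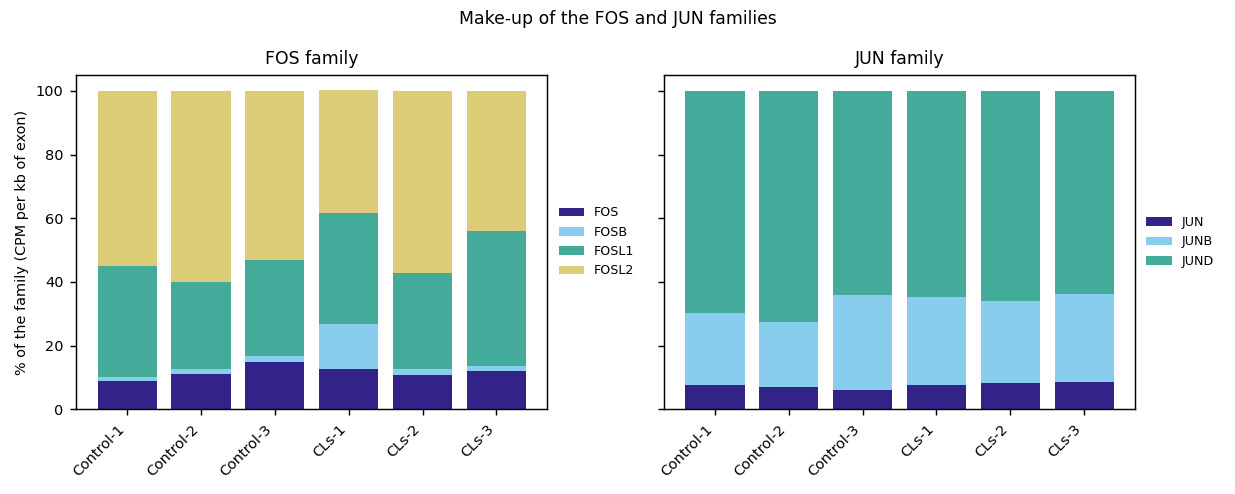
Share of each gene in the summed CPM per kb of exon of its family (%), per sample, with FOS, FOSB, FOSL1 and FOSL2 in the left panel and JUN, JUNB and JUND in the right panel. FOSB reaches its highest share in CLs-1, and the other samples stay under 1.89% or at it.

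A single library set the values of some of these genes. FOSB, the remaining FOS family gene, was counted 11, 13 and 22 times in the controls and 270, 16 and 17 times after CLs. CLs-1 was thus 9.91 times the highest of the other libraries on the CPM scale, and CLs-2 and CLs-3 lay inside the control range. Its log2 fold change of 2.46 (SE 0.88, edgeR adjusted p = 0.653) became 0.12 without CLs-1. With no filter on low counts FOSB passed the criteria, with an adjusted p = 0.00483 from the same test, on these same counts. EGR1 in CLs-1 was 2.09 times the highest of the other libraries, and it was the 1 of the 10 genes over a ratio of 2, a limit chosen after its values were seen that 0.193% of all genes tested pass. EGR3 and EGR2, relatives of EGR1, had 0 counts in each control. After CLs EGR3 had 15, 1 and 0 counts and EGR2 had 8, 3 and 2. EGR2 was thus read in every CLs-treated library, though in CLs-2 and CLs-3 at or under the floor of 3 counts. For FOS the ratio was 1.14, and for JUN it was 0.782. CLs-1 was the highest of the CLs-treated samples in 4 of the 10 genes, FOS, FOSL1, FOSL2 and EGR1, against 39.9% of all genes. The summed level of HBA1, HBA2 and HBB was 33.0 CPM in CLs-1 and 0 to 0.347 CPM elsewhere, and that of 6 steroidogenic markers was 37.3 CPM in CLs-1 and 0.955 to 2.76 CPM elsewhere. The part of these other transcripts in the FOSB and EGR1 counts of CLs-1 was not tested.

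**Figure D4:**
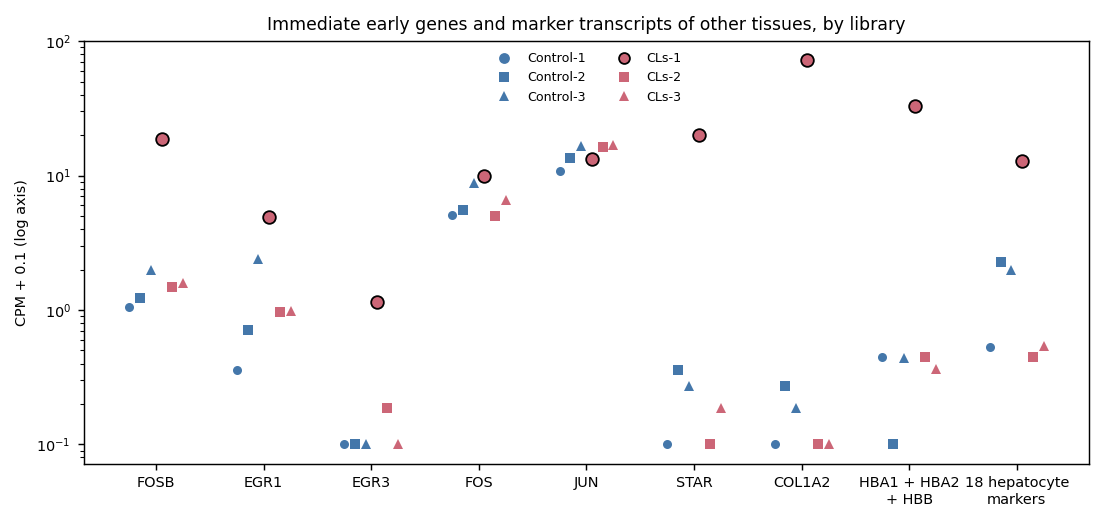
CPM + 0.1 on a log axis in each of the 6 libraries (blue: control, red: CLs-treated, outlined circle: CLs-1) for FOSB, EGR1, EGR3, FOS, JUN, STAR and COL1A2, and the summed CPM of 3 globin genes and of 18 hepatocyte markers. CLs-1 stands above the other libraries in FOSB and EGR1, as it does in STAR, COL1A2 and the globins, and it stays among them in JUN.

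Control-3 was the highest of the controls in 8 of the 10 genes, all but FOSL1 and ATF3, against 39.7% of all genes tested, and Control-1 was the lowest in 7. Of all 6 samples Control-3 was the highest in 5 genes, FOSL2, JUNB, JUND, IER2 and IER3. The shares over all genes for these counts of 7 and 5 were not computed, so neither can be called particular to the 10 genes. The ratio of the highest to the lowest control was 8.89 for EGR1, 2.50 for JUNB and 2.23 for IER3, and 1.05 for FOSL2. Without Control-3 the median log2 fold change of the 10 genes was 0.35, and without CLs-1 it was -0.046, and no gene of the 10 passed the criteria in either fit. Without both of them, a choice made after the values were seen, the median was 0.21, and in 4 of the 10 genes the groups no longer overlapped, against 45.8% of all genes tested in that fit, and none passed.

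Around these genes, 5 lists of the pathway were described in the same way, and no gene of any list passed the criteria. Of 16 other immediate early regulators 12 were tested, with 1 gene separate upwards (KLF4) and 1 downwards (NR4A3), against 5.34% and 6.18% of all genes, and a median log2 fold change of -0.21. NR4A3, an orphan nuclear receptor, was at 11.4, 15.3 and 12.0 CPM in the controls and 9.14, 7.78 and 6.04 CPM after CLs, a log2 fold change of -0.75 (SE 0.22, edgeR adjusted p = 0.382). BHLHE40, a repressor tied to the clock and to hypoxia, had a log2 fold change of -0.48, and its Control-3 stood at 100.7 CPM against 47.4 to 60.8 CPM in the other samples. NR4A1, another of the same receptors, was named after its values were seen. It was at 29.5, 29.8 and 29.3 CPM in the controls, at 16.8 and 14.5 CPM in CLs-2 and CLs-3, and at 30.4 CPM in CLs-1. Its log2 fold change was -0.52 (edgeR adjusted p = 0.863). Without CLs-1 it was -0.92, with an adjusted p = 0.119 from the same test, and without CLs-1 and Control-3 NR4A1 passed, at -0.92 with an adjusted p = 0.0372 from the same test.

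The list named inducible brakes holds phosphatases and RNA-binding proteins that damp the signal, and other early products that do not all act in that way. All 18 were tested, with a median log2 fold change of -0.014. In 4 of them (DUSP1, DUSP8, GADD45B and TRIB1) the CLs-treated samples lay below all controls, against 6.18% of all genes, and in 0 above, against 5.34%, with none called. DUSP1, which inactivates MAP kinases, was at 204.7, 168.8 and 241.7 CPM in the controls and 136.5, 155.1 and 163.9 CPM after CLs, a log2 fold change of -0.43 (SE 0.16, edgeR adjusted p = 0.653). DUSP8, a phosphatase of stress kinases, had a log2 fold change of -0.74. DUSP4, a nuclear ERK phosphatase, was at 9.03, 4.84 and 6.17 CPM in the controls and 15.0, 6.83 and 20.8 CPM after CLs. CLs-2 of DUSP4 lay among the controls, and its log2 fold change was 1.09 (SE 0.36, edgeR adjusted p = 0.553). With no filter on low counts DUSP4 passed, with an adjusted p = 0.0329 from the same test.

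Of 16 leucine zipper partners 14 were tested, with a median log2 fold change of 0.077. JDP2, a repressor that pairs with JUN, was at 42.9, 33.6 and 36.6 CPM in the controls and 25.6, 28.0 and 29.3 CPM after CLs, so every CLs-treated sample was below every control. Its log2 fold change was -0.45 (SE 0.15, edgeR adjusted p = 0.564). Of the 14, 1 lay lower without overlap and 0 lay higher, against 6.18% and 5.34% of all genes tested. DDIT3, the CHOP protein of the unfolded protein response, and CREB1, which binds the CRE, had log2 fold changes of 0.53 and 0.22, and their groups overlapped. All 20 kinases and SRF factors upstream were tested, and their median was -0.029. SRF itself was at 74.2, 62.3 and 74.2 CPM in the controls and 49.2, 52.9 and 61.7 CPM after CLs, and MKL1, its actin-sensing coactivator, at 68.9, 83.1 and 87.6 CPM and 58.6, 60.7 and 66.0 CPM. In both genes all controls lay above all treated samples, with log2 fold changes of -0.36 and -0.37. Neither was called, with adjusted p-values of 0.736 and 0.686 from edgeR's quasi-likelihood test. They were the 2 of the 20 that lay lower without overlap, and 0 lay higher, against 6.18% and 5.34% of all genes tested. MAP2K4, a kinase that activates JNK, had a log2 fold change of 0.28.

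Of 23 AP-1 and EGR1 targets 13 were tested, with a median log2 fold change of 0.021. In none of them were the groups separate, against 11.5% of all genes tested. The untested ones included the collagenase genes MMP1 and MMP9, with 0 counts in every library. PTGS2, the inducible cyclooxygenase, was at 6.72 CPM in CLs-1 and at 1.22 to 3.26 CPM in the other libraries, with log2 fold changes of 0.78 with and 0.23 without CLs-1. EZR, which ties actin to the cell membrane, had a log2 fold change of -0.34 (edgeR adjusted p = 0.869).

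**Figure D5:**
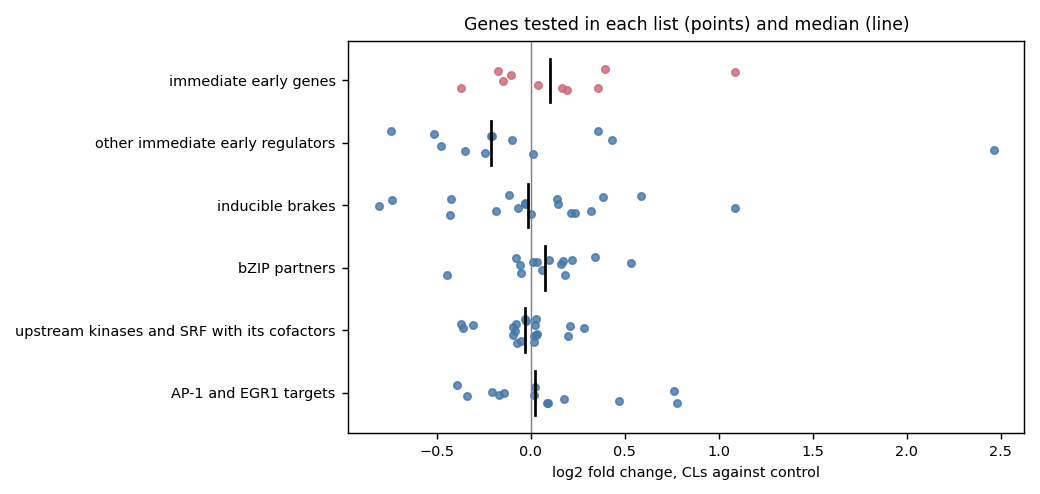
Log2 fold change, CLs against control, of every tested gene (points) of the 10 immediate early genes and of 5 lists around them, with the median of each as a line. The medians lie between -0.21 and 0.10, and the point at 2.46 is FOSB.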

How the data were processed

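RNA-seq of 3 control and 3 CLs-treated samples was used, as single-end Ion Proton libraries. The authors aligned the filtered reads by MapSplice. Their deposited table gives raw counts for 40205 gene symbols. HTSeq 0.6.1 and the build hg19 (GRCh37) are named in the submitters' processing notes. The strand setting and the annotation are not given in the sources used here. All 6 sample columns were used.

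Counts were compared with edgeR 4.0.16 in R 4.3.3 (filterByExpr, TMM scaling, quasi-likelihood F test on condition alone), with Benjamini-Hochberg adjustment over 15047 genes, in place of the EBSeq test of the study, which was not run. Standard errors were derived from the F statistic. CPM is relative to the TMM-scaled total. Single genes were also compared by an exact permutation test (scipy 1.17.1).

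Named are all 10 genes and, of each list, genes called or else the 3 with the lowest p-value, except 1 gene of the AP-1 and EGR1 targets that is not reported here. The members and lists were chosen with earlier results of these data known. Alternatives were DESeq2 1.42.0, other scaling, other filters, samples left out, a replicate block, and calls by adjusted p-value alone. Levels per kb used GENCODE 29 exons, and promoters came from RefSeq (GRCh38.p14).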

Additional observations from a re-analysis of the deposited data

How the results depend on the processing

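No gene of the 10 passed the criteria under any of 15 alternatives, and the smallest adjusted p-value was 0.141, for JUNB in edgeR without CLs-1 and Control-3. Of 139 recomputed fold changes of these genes 128 kept their direction and 11 turned, all 11 in fits that left out samples. The number of genes called in the whole table, 13, was 107 with DESeq2, 8 with library totals only, 171 with no filter on low counts, 68 with the replicate number as a block and 102 without CLs-1 and Control-3 together, an alternative chosen after seeing the data. It was 3 to 7 when 1 sample was left out. The causes were not tested. Genes of the 10 with separate groups numbered 0, and 1 to 2 when 1 sample was left out, where 16.7 to 27.2% of all genes tested were separate, and 4 without CLs-1 and Control-3, where 45.8% were. The median log2 fold change of the 10, 0.10, was -0.079 to 0.35 when 1 sample was left out. With 1 sample left out, the log2 fold change was -0.16 to 0.46 for FOS, -0.29 to 2.36 for EGR1, -0.20 to 0.54 for JUNB, -0.33 to 0.059 for JUND, -0.24 to 0.062 for IER2 and -0.81 to 0.082 for IER3. Without CLs-1 and Control-3 it was 0.12 for JUND, 0.16 for IER2 and 0.25 for IER3. In the blocked fit, none of the 10 was called and their median log2 fold change was 0.15. IER3 had the lowest adjusted p-value of the 10 there, with a log2 fold change of -0.37 (edgeR adjusted p = 0.436). Its SE was 0.13, against 0.335 without the block, while that of FOSL2 was 0.136 against 0.133. The labels give a shared number and do not state a pairing. The correlations of deviations from the group means were 0.111, 0.0987 and 0.305 for the pairs 1, 2 and 3. Those between unlike numbers were -0.201 to 0.0783, and every sample correlated best with its own number. Whether samples of the same number were paired cannot be settled from these values. EGR1 had under 10 counts in some libraries and could not be tested at a minimum of 10 in every sample. EGR2 and EGR3 had too few counts to be tested.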
